A study of Mus musculus with 16 samples.

Results

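The growth hormone and IGF axis of the liver was followed through 10 genes, taken by symbol from the deposited table: the receptor genes *Ghr* and *Prlr*, the transcription factor gene *Stat5b*, the feedback inhibitor genes *Socs2* and *Cish*, the ligand gene *Igf1*, the carrier gene *Igfals*, and the IGF-binding protein genes *Igfbp1*, *Igfbp2* and *Igfbp3*. All 10 were found among the 18209 rows with a gene identifier, and all 10 were among the 15781 genes tested, so no member was lost to the filter on low values.

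Growth hormone from the pituitary binds its receptor on hepatocytes, which activates the kinase JAK2 and, through it, STAT5 proteins. STAT5 then drives transcription of *Igf1* and *Igfals*, and also of *Socs2* and *Cish*, whose products act back on the receptor. The liver is the main source of circulating IGF-1, and most of it travels in a ternary complex with IGFBP-3 and the acid-labile subunit encoded by *Igfals*. *Igfbp1* is known to rise in fasting and to be repressed by insulin through forkhead factors, and hepatic growth hormone signalling is still maturing in mice around weaning.

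RNA was sequenced from the livers of 16 mice labelled as male and 20 days old, 4 of each genotype, and the labels do not say whether mice shared a litter. All of them carried floxed alleles of *Trsp*, the selenocysteine tRNA gene. *Trsp* fl/fl mice had no Cre and wild-type KEAP1 and are called control livers here. *Trsp* fl/fl::*Alb*Cre mice carried Cre under the albumin promoter, which the paper uses to delete *Trsp* in hepatocytes, and are called knockout livers. *Keap1* C226S&C613S homo::*Trsp* fl/fl animals were homozygous for serine substitutions at a pair of KEAP1 sensor cysteines and are called substituted livers. Mice with both the *Keap1* C226S&C613S homo substitution and *Trsp* fl/fl::*Alb*Cre are called compound livers. The study asked whether these cysteines are needed when selenoproteins are missing. The deletion itself was not measured here.

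Libraries held 11386669 to 19164133 reads, and values are log2(normalized count + 4), where a normalized count is the reads of a gene divided by a size factor of the library. The scale is not per length, so levels are compared between livers and not between genes. Hepatocyte markers were abundant throughout, albumin alone taking from 4.89% to 10.8% of the reads. One library stood against its label: the library labelled compound replicate 1 had 28798 *Xist* reads, against 22 to 50 in the other 15, and 2 reads on 4 Y-linked genes, against 1830 to 3066. Compound replicates 1 and 3 also had the lowest summed level of 6 hepatocyte markers, 846949 and 1171160 normalized counts, against 1492320 or more in every other library. Albumin makes up most of this sum. In replicate 1 all of these markers but *Tat* (14.35) lay below every control liver. In replicate 3 *Alb*, *Ttr* and *Cps1* did so (19.74, 14.77 and 16.28), while *Apoa1*, *Serpina1a* and *Tat* lay within the control range (16.53, 15.98 and 14.86). In bulk tissue, fewer cells of a type and less RNA per cell cannot be told apart. Fitted differences of the axis genes that rest on compound livers are therefore given with and without replicate 1.

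RefSeq promoter windows of GRCm38.p6, the 250 bases before each annotated start, were read for 9 of the 10 genes (16 windows). *Socs2* had no entry. They were searched on both strands for the STAT5-type palindrome TTCNNNGAA, the forkhead element TGTTTAC, the insulin response element TGTTTTG and the antioxidant response element core TGACNNNGC. Windows of 3 genes are shown because they hold such letters and because their genes stand for the carrier, receptor and binding protein arms of the axis. Capitals mark the matches.

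Igfals (chr17:24877981-24878230, plus strand): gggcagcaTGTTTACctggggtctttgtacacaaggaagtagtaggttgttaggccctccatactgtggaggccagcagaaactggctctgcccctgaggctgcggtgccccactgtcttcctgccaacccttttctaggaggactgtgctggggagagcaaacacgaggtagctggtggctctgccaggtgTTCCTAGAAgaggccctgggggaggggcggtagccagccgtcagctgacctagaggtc
Prlr (chr15:10223656-10223905, plus strand): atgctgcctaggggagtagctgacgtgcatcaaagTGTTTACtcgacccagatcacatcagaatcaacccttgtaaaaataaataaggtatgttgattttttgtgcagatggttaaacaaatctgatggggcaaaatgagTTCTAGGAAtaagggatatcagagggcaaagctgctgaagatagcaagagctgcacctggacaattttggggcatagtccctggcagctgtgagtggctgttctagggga
Igfbp1 (chr11:7197537-7197786, plus strand): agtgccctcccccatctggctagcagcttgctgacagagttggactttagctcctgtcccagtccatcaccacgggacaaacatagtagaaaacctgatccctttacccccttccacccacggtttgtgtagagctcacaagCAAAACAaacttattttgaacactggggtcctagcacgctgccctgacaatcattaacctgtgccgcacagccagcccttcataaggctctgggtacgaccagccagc

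In the *Igfals* window the palindrome lay 58 to 50 bases before the start and the forkhead letters 242 to 236 bases before it. A second *Igfals* window, starting at 24877594 on chromosome 17, held TTCTCAGAA 236 to 228 bases before its start. The *Prlr* window held the palindrome 110 to 102 bases and the forkhead letters 215 to 209 bases before the start. In *Igfbp1* the insulin response letters lay on the opposite strand, 108 to 102 bases before the start, where the capitals read CAAAACA. No matches overlapped. Among 32851 promoter windows of the same length, 7.02% held the palindrome, 3.17% TGTTTAC, 5.56% TGTTTTG and 10.2% the antioxidant core. A match is a description of letters and not a binding site, and windows without one lack only these letters.

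Across the 5 contrasts fitted with limma, none of the 10 genes passed the thresholds of the study, an absolute log2 fold change over 1 with an adjusted p under 0.01, and none passed an adjusted p under 0.05. With limma voom on the recovered reads 0 genes passed either rule. The share of all genes past the study thresholds was 0.215% for knockout against control, 0.171% for compound against substituted, 0.0127% for substituted against control, 0.57% for compound against knockout and 0.057% for the interaction. The corresponding shares at an adjusted p under 0.05 were 0.558%, 0.798%, 0.0887%, 2.07% and 0.0951%. The genes with the lowest adjusted p were *Ghr*, lower in compound than in substituted livers, and *Socs2*, lower in compound than in knockout livers.

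**Figure D1:**
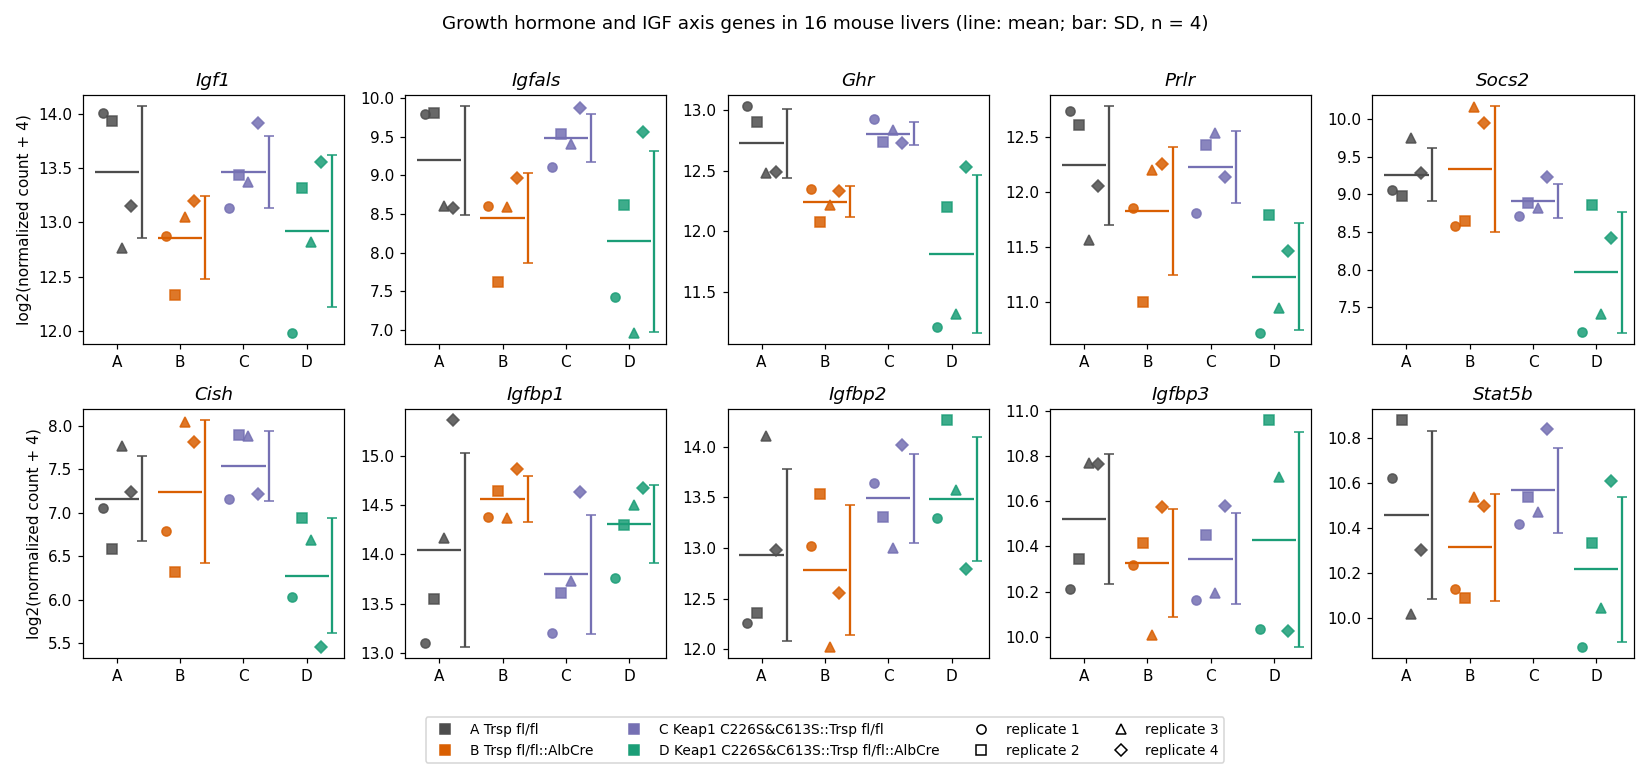
Level of each of the 10 axis genes, as log2(normalized count + 4), in every liver of the 4 genotypes (A to D; marker shape gives the replicate, the line the mean and the bar the SD, n = 4). Of 4 compound livers (D), 2 sit below every other library for *Ghr*, while no genotype stands apart for *Igfbp2* or *Igfbp3*.

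*Ghr* encodes the growth hormone receptor, the entry point of the axis. It stood at 13.03, 12.90, 12.48 and 12.49 in control livers, at 12.35, 12.08, 12.22 and 12.33 in knockout livers, at 12.93, 12.73, 12.84 and 12.72 in substituted livers, and at 11.21, 12.20, 11.32 and 12.53 in compound livers. Every knockout liver was below every control liver, and every compound liver was below every substituted liver, though compound replicate 4 lay as high as the lower control livers and replicates 1 and 3 lay lowest of all. In compound livers *Ghr* was at 0.503 of the substituted level (95% confidence interval 0.355 to 0.713), a log2 difference of -0.99 with a standard error of 0.24 (limma adjusted p = 0.067). Without compound replicate 1 the difference was -0.79 (limma adjusted p = 0.17), and without compound replicate 4 it was -1.23 (limma adjusted p = 0.0075). Among the compound livers, *Ghr* was highest in replicate 4. Without that library 122 genes were higher and 259 lower at an adjusted p under 0.05, against 60 and 66 with all libraries. With all 16 libraries scaled by library totals, the limma adjusted p of *Ghr* was 0.039. In knockout against control livers the difference was -0.48 with a standard error of 0.24 (limma adjusted p = 0.48). The knockout effects with and without the substitution differed by -0.51, with an interval from -1.22 to 0.20 (limma adjusted p = 0.58), by -0.31 without compound replicate 1 and by -0.75 without compound replicate 4.

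*Prlr*, the gene of the prolactin receptor, belongs to the same receptor family and also signals through STAT5. Its levels were 12.74, 12.61, 11.57 and 12.06 in control livers, 11.85, 11.00, 12.20 and 12.26 in knockout livers, 11.81, 12.42, 12.54 and 12.13 in substituted livers, and 10.72, 11.79, 10.94 and 11.47 in compound livers. Control and knockout livers overlapped widely, whereas the highest compound liver lay just under the lowest substituted one. The compound mean was at 0.501 of the substituted mean (interval 0.316 to 0.794), a log2 difference of -0.996 with a standard error of 0.31 (limma adjusted p = 0.16), and the difference was -0.83 without compound replicate 1 (limma adjusted p = 0.39).

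*Stat5b* encodes the STAT5 protein through which growth hormone acts in hepatocytes. It had the smallest within-genotype SD of the 10 genes and ran from 9.87 to 10.88 over all 16 livers. The 4 control livers were at 10.62, 10.88, 10.02 and 10.30 and the compound livers at 9.87, 10.34, 10.05 and 10.61, so that these groups overlapped. Differences ranged from -0.35 in compound against substituted livers (limma adjusted p = 0.45, and -0.24 without compound replicate 1) to 0.11 in substituted against control livers (limma adjusted p = 0.89).

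Feedback is carried by *Socs2*, which restrains growth hormone receptor signalling, and by *Cish*, an immediate STAT5 target of the same family. *Socs2* was at 9.06, 8.97, 9.74 and 9.28 in control livers, at 8.58, 8.65, 10.16 and 9.94 in knockout livers, at 8.71, 8.89, 8.82 and 9.23 in substituted livers, and at 7.17, 8.85, 7.42 and 8.42 in compound livers. Knockout livers split into a lower pair (replicates 1 and 2) and a higher pair (replicates 3 and 4), and compound replicates 1 and 3 lay below all other livers. Compound livers were at 0.388 of the knockout level (interval 0.219 to 0.686), a log2 difference of -1.37 with a standard error of 0.39 (limma adjusted p = 0.081). Against substituted livers the difference was -0.95 (limma adjusted p = 0.29), and -0.68 without compound replicate 1 (limma adjusted p = 0.58). Leaving out compound replicate 1 gave -1.10 against knockout livers (limma adjusted p = 0.23), while leaving out compound replicate 4 gave -1.52 (limma adjusted p = 0.042) and leaving out compound replicate 2 gave -1.66 (limma adjusted p = 0.044). Among all genes 204 were lower at an adjusted p under 0.05 with all libraries, 685 without compound replicate 4 and 161 without replicate 2.

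*Cish* was at 7.05, 6.59, 7.77 and 7.24 in control livers, at 6.79, 6.32, 8.04 and 7.81 in knockout livers, at 7.15, 7.89, 7.88 and 7.21 in substituted livers, and at 6.03, 6.93, 6.69 and 5.46 in compound livers. All compound livers were under all substituted livers, but 2 of them reached into the range of the knockout livers. As with *Socs2*, knockout replicates 3 and 4 were the higher pair. The compound level was 0.419 of the substituted level (interval 0.235 to 0.746), a log2 difference of -1.25 with a standard error of 0.39 (limma adjusted p = 0.16), and without compound replicate 1 it was -1.17 (limma adjusted p = 0.34). Unlike *Ghr*, *Cish* was lowest in compound replicate 4. The interaction was larger for *Cish* than for the other 9 genes, at -1.33 with a standard error of 0.55 (limma adjusted p = 0.44), and it was -1.25 without compound replicate 1 (limma adjusted p = 0.63).

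*Igf1*, the endocrine output of the axis, was at 14.01, 13.93, 12.77 and 13.15 in control livers, at 12.87, 12.33, 13.05 and 13.19 in knockout livers, at 13.13, 13.44, 13.37 and 13.92 in substituted livers, and at 11.98, 13.32, 12.82 and 13.56 in compound livers. Neither pair of genotypes separated. The 4 control livers alone spanned more than 1 log2 unit, with replicates 1 and 2 high and replicates 3 and 4 low. Knockout livers were at 0.658 of the control level (interval 0.402 to 1.08), a log2 difference of -0.60 (limma adjusted p = 0.54). Compound livers were at 0.685 of the substituted level (interval 0.418 to 1.12), a difference of -0.55 (limma adjusted p = 0.51), which was -0.23 without compound replicate 1 (limma adjusted p = 0.85). The interaction was 0.06, with an interval from -0.95 to 1.06, and 0.37 without compound replicate 1.

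*Igfals*, which encodes the acid-labile subunit and whose promoter window is shown above, varied most between mice. Levels were 9.79, 9.81, 8.60 and 8.57 in control livers, 8.60, 7.62, 8.59 and 8.97 in knockout livers, 9.11, 9.53, 9.41 and 9.87 in substituted livers, and 7.43, 8.62, 6.96 and 9.56 in compound livers. Compound replicates 1 and 3 were the lowest of all livers, and compound replicate 4 lay among the substituted ones. The compound mean was at 0.396 of the substituted mean (interval 0.197 to 0.797), a log2 difference of -1.34 with a standard error of 0.48 (limma adjusted p = 0.22). It was -1.10 without compound replicate 1 (limma adjusted p = 0.46) and -1.81 without compound replicate 4 (limma adjusted p = 0.039). Without compound replicate 4, 259 of all genes were lower at an adjusted p under 0.05, against 66 with all libraries. In knockout against control livers the difference was -0.75 (limma adjusted p = 0.59), and -0.47 without knockout replicate 2 (limma adjusted p = 0.83).

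The binding protein genes did not follow the receptors. *Igfbp1*, which encodes an acute regulator of free IGF-1, was at 13.09, 13.55, 14.17 and 15.37 in control livers, 14.38, 14.64, 14.37 and 14.87 in knockout livers, 13.21, 13.61, 13.73 and 14.64 in substituted livers, and 13.76, 14.30, 14.51 and 14.67 in compound livers. Control livers were the most scattered and knockout livers the tightest group, lying inside the control range. Its mean was higher by 0.52 in knockout than in control livers (interval -0.32 to 1.37, limma adjusted p = 0.66) and by 0.51 in compound than in substituted livers (limma adjusted p = 0.63). The first difference was 0.20 without control replicate 1 and 0.96 without control replicate 4 (limma adjusted p = 0.20). The other was 0.70 without compound replicate 1, 0.32 without substituted replicate 1 and 0.79 without substituted replicate 4.

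*Igfbp2*, an IGF-binding protein gene highly expressed in young liver, was at 12.26, 12.36, 14.11 and 12.98 in control livers, 13.02, 13.53, 12.03 and 12.56 in knockout livers, 13.64, 13.30, 13.00 and 14.02 in substituted livers, and 13.30, 14.26, 13.57 and 12.79 in compound livers. Livers with and without the substitution overlapped in both pairs. Its mean was higher by 0.56 in substituted than in control livers (limma adjusted p = 0.72) and by 0.70 in compound than in knockout livers (limma adjusted p = 0.40). Without control replicate 1 or 3 the first difference was 0.34 or 0.96. The other was 0.76 without compound replicate 1, 0.44 without compound replicate 2 and 1.03 with quantile normalization. *Igfbp3*, which encodes the main carrier of circulating IGF-1 and is expressed mostly outside hepatocytes in liver, ranged from 10.01 to 10.96 over the 16 livers. Its largest fitted value was 0.28, for the interaction (limma adjusted p = 0.74), which was 0.41 without compound replicate 1, 0.10 without compound replicate 2 and 0.42 without compound replicate 4.

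**Figure D2:**
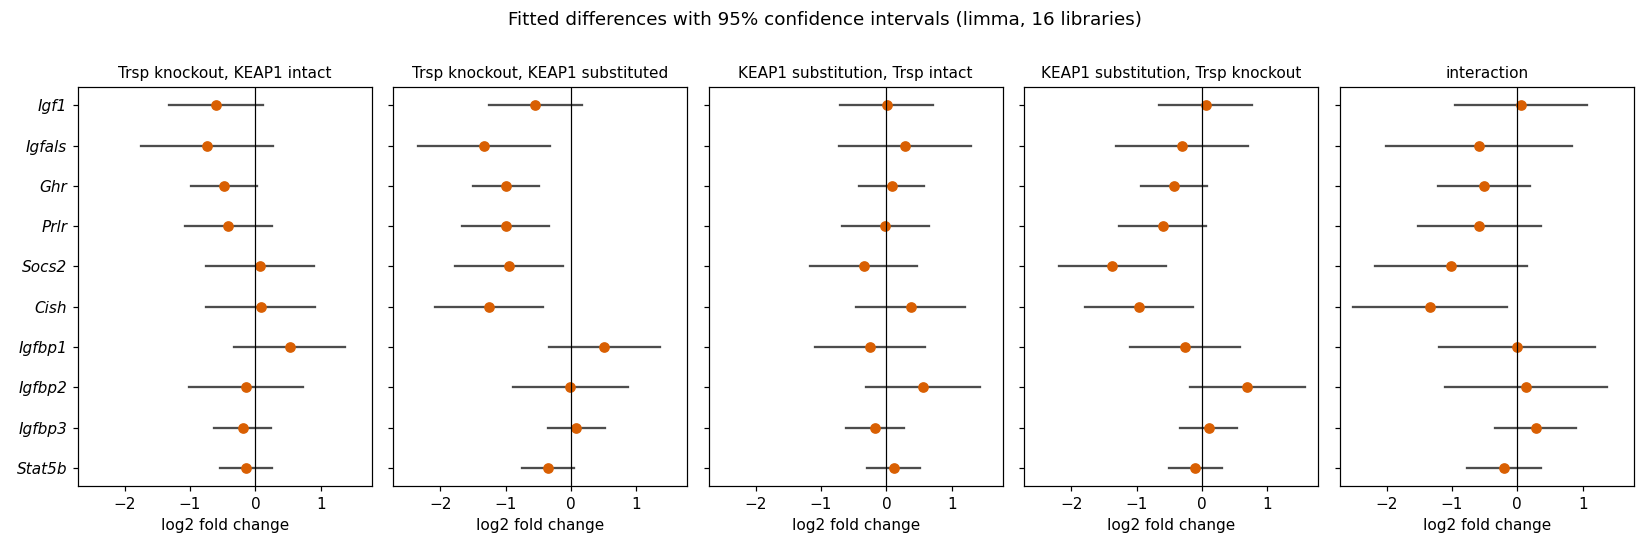
Fitted log2 fold changes (points) of the 10 genes with 95% confidence intervals (lines) in the 5 contrasts, from limma on all 16 livers. In compound against substituted livers (KEAP1 substituted, second panel) the intervals of *Igfals*, *Ghr*, *Prlr*, *Socs2* and *Cish* lie below 0, before adjustment over all genes tested.

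Read as a group, the 10 genes had a median log2 difference of -0.75 in compound against substituted livers, where the median of all genes tested was -0.0049. At an unadjusted p under 0.05, which is a description and not a call, 5 of 10 were lower (*Cish*, *Ghr*, *Igfals*, *Prlr* and *Socs2*) and 0 higher in limma. Over all genes, 7.08% were lower and 13.6% passed in either direction. Without compound replicate 1 the count was 4 and the median -0.46, without replicate 3 the count was 3, and without replicate 4 it was 7. Among all genes tested, 1117 were lower with all libraries, and 813, 839 and 1497 in these fits in that order. *Cish*, *Ghr* and *Prlr* had no overlap between these groups, against 7.69% of all genes in either direction and 3.71% lower.

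In the compound livers the summed hepatocyte markers ran from 846949 to 1659380 normalized counts, against 1745050 to 2109940 in the substituted livers. Of 6 markers, 5 had a lower mean, where 50.7% of all genes had a negative difference. Their median log2 difference was -0.45, and -0.27 without compound replicate 1. Within the compound group, replicates 1 and 3 were lowest in *Ghr*, *Igfals*, *Prlr*, *Socs2*, *Igf1* and *Stat5b* and also in these markers, whereas *Cish* was lowest in replicates 1 and 4. The part of the markers in these differences was not tested.

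The other contrasts gave less. In knockout against control livers 7 of 10 genes had a negative difference, against 52.3% of all genes, with a median of -0.17. None passed an unadjusted p under 0.05, where 11% of all genes did (1741 genes). Without compound replicate 1, which enters this contrast through the shared estimate of the spread, 2 did (*Ghr* and *Igf1*, both lower). In that fit 877 of all genes were lower and 915 higher. Only *Ghr* had no overlap, against 6.01% of all genes in either direction and 2.62% lower. Hepatocyte marker sums overlapped between these genotypes, at 1492320 to 1864360 in knockout and 1520460 to 1859700 in control livers.

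In substituted against control livers the median of the 10 genes was 0.04, none passed an unadjusted p under 0.05 (9.07% of all genes, 1431 genes) and none was free of overlap (6.23% of all genes). In compound against knockout livers the median was -0.28, and -0.068 without compound replicate 1. *Cish* and *Socs2* were lower at an unadjusted p under 0.05, where 17.6% of all genes passed and 9.15% were lower, and *Socs2* alone without compound replicate 1. In the fit without that library 1077 of all genes were lower. None was free of overlap (8.61% of all genes). For the interaction the median was -0.36, or -0.20 without compound replicate 1, and *Cish* alone passed an unadjusted p under 0.05 (10.8% of all genes), with none left without compound replicate 1. Both contrasts of compound livers share the same 4 livers and are not independent of each other.

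Variation between mice of one genotype was wide for this axis. All 10 genes had a within-genotype SD above the median SD of tested genes within 0.5 log2 of their mean level. *Igfals* had an SD of 0.759, against 0.194 for its 2301 neighbours in level, which put it at percentile 97.7 of them. These SDs pool the genotypes, which were uneven. That of *Igfals* was 0.70 in control, 0.58 in knockout, 0.31 in substituted and 1.17 in compound livers. For *Ghr* these were 0.28, 0.12, 0.096 and 0.65. *Socs2*, next by percentile among genes of like level, had 0.616 against 0.193, and *Igf1* had 0.525 against 0.308. *Stat5b* was the closest to its neighbours, at 0.290 against 0.197. Counting error was largest for *Cish*, at 40 to 283 reads per library and up to 15.8%, and was at most 8.70% for *Igfals*, at 132 to 974 reads.

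**Figure D3:**
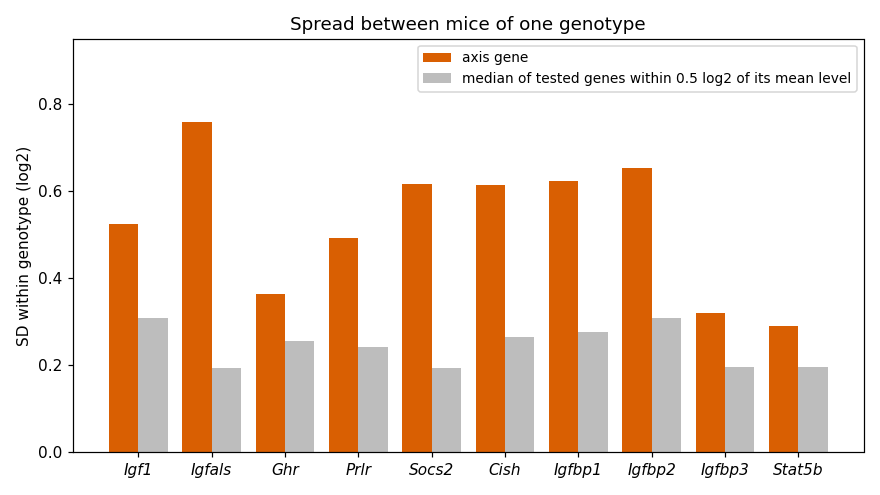
SD within genotype, in log2 units, of each axis gene (orange bars) beside the median SD of tested genes within 0.5 log2 of its mean level (grey bars). All 10 genes lie above their neighbours, *Igfals* at 0.759 against 0.194.

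Part of this variation was shared between some of the axis genes. Deviations of each liver from the mean of its genotype were correlated for all 45 pairs over 16 libraries, with 2-sided permutation of libraries within genotype. For 8 pairs the adjusted p for Pearson's r was under 0.05, all positive, and for 4 of these the adjusted p for Spearman's rho was also under 0.05. Of these 8 pairs, 7 joined members of the set *Igf1*, *Igfals*, *Stat5b*, *Prlr* and *Ghr*, and the other was *Igfbp2* with *Igfbp3*. Pairs of genes outside the axis were not put through this test. Whether such sharing is particular to the axis was therefore not tested.

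*Igf1* and *Stat5b* were the closest pair, with r = 0.92 (permutation p = 9.0e-05, adjusted p = 0.0040) and rho = 0.89 (permutation p = 0.00013, adjusted p = 0.0058). The r was 0.90 without the 2 libraries farthest from the median of *Igf1*, between 0.90 and 0.94 with each library left out in turn, and positive in each of 4 genotypes. *Igf1* and *Igfals* had r = 0.85 (permutation p = 0.0031, adjusted p = 0.034) and rho = 0.92 (permutation p = 0.00063, adjusted p = 0.014), with r = 0.87 without 2 libraries. *Igfals* and *Ghr* had r = 0.88 (permutation p = 0.0060, adjusted p = 0.034) and r = 0.77 without 2 libraries, but rho = 0.84 had an adjusted permutation p of 0.089 and the sign was the same in 3 genotypes.

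*Socs2* and *Cish* had r = 0.57 (adjusted permutation p = 0.28) and rho = 0.62 (adjusted permutation p = 0.23). *Igf1* with *Cish* had r = -0.022 (adjusted permutation p = 0.97) and rho = -0.094 (adjusted permutation p = 0.92). *Igf1* with *Socs2* had r = 0.46 (adjusted permutation p = 0.30, between 0.28 and 0.67 with each library left out) and rho = 0.35 (adjusted permutation p = 0.49). *Igfbp2* and *Igfbp3* had r = 0.72 (permutation p = 0.0039, adjusted p = 0.034) and rho = 0.64 (adjusted permutation p = 0.11), with r = 0.64 without 2 libraries. *Igfbp2* ran against *Prlr*, with r = -0.59 (adjusted permutation p = 0.16) and rho = -0.54 (adjusted permutation p = 0.23), and r was -0.31 without 2 libraries. Scaling by library totals, added after the data were seen, gave r = 0.87 for *Igf1* with *Stat5b* and r = 0.82 for *Igf1* with *Igfals*.

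**Figure D4:**
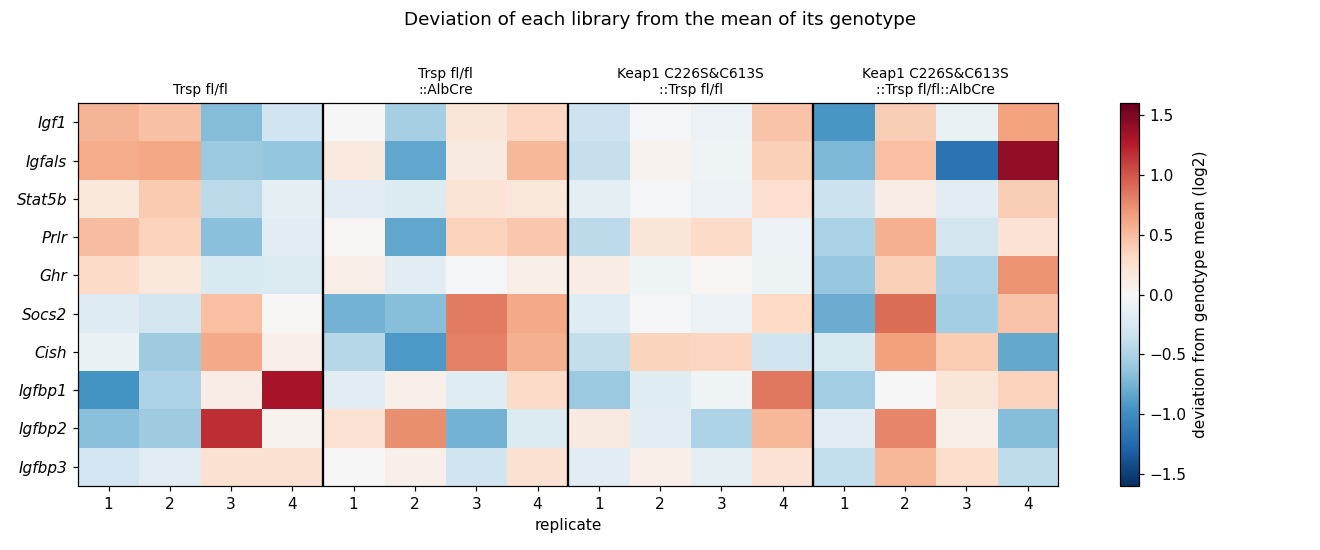
Deviation of each liver from its genotype mean (color, log2 units) for the 10 genes (rows) in the 16 livers (columns, by genotype and replicate). *Igf1*, *Igfals*, *Stat5b*, *Prlr* and *Ghr* are high together in control replicates 1 and 2 and low together in replicates 3 and 4, while *Cish* takes the opposite sign in each of these 4 livers. In the knockout livers *Cish* instead has the same sign as *Stat5b* in every replicate.

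Over all 16 levels, the 5 tested genes most like *Igf1* by Pearson's r were *Cep250* (0.93), *Hao2* (0.93), *Amt* (0.92), *Stat5b* (0.91) and *Elp4* (0.90), as a description across livers that share library and genotype. *Igfals* came at rank 8, *Prlr* at rank 45 and *Ghr* at rank 70 of the genes tested. Genes outside the axis thus ranked above each of these members, and *Cep250*, *Hao2* and *Amt* also ranked above *Stat5b*. *Igfbp1* and *Igfbp2* had negative values, -0.21 and -0.28.

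The rest of the pathway was read from a list of 24 genes, of which 23 were in the table and tested (*Pappa2* had no row). One passed an adjusted p under 0.05 in one contrast, compound against knockout livers. There 0.779% of all genes were higher at that limit and 2.07% passed in either direction. The gene was *Igf2*, the fetal IGF ligand that is silenced in liver after birth, and it was higher in compound livers. It stood at 4.80, 4.92, 8.53 and 6.05 in control livers, 5.30, 6.27, 4.79 and 4.79 in knockout livers, 8.70, 9.13, 6.10 and 9.26 in substituted livers, and 9.77, 9.71, 8.49 and 7.49 in compound livers. Compound and knockout livers did not overlap, as was so for 8.61% of all genes in either direction. Control replicate 3 and substituted replicate 3 each lay apart from their group. The difference was 3.58 with a standard error of 0.82 (limma adjusted p = 0.034), and 3.28 without compound replicate 1 (limma adjusted p = 0.11). The call was also lost without compound replicate 2 or 3 or knockout replicate 1, 3 or 4 (limma adjusted p from 0.069 to 0.092), and with limma voom on the recovered reads (adjusted p = 0.11). In substituted against control livers *Igf2* differed by 2.22 (limma adjusted p = 0.41).

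Of the 23, none passed in the remaining contrasts. At an unadjusted p under 0.05, 4 were lower and 1 higher in compound against substituted livers, where 7.08% of all genes were lower and 6.52% higher. Without compound replicate 1 these counts were 1 and 0, where 813 of all genes were lower and 853 higher. The higher gene was *Socs3*, a cytokine-induced inhibitor of JAK signalling, which differed by 1.48 (limma adjusted p = 0.33). The median over the list was 0.03 there. *Jak2*, the kinase bound to the growth hormone receptor, differed by -0.06 (limma adjusted p = 0.83), with a standard error of 0.09.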

How the data were processed

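Liver RNA of 16 mice was sequenced by the authors from rRNA-depleted, strand-marking libraries. Salmon was named for quantification and the iDEP platform for analysis. The deposited values are log2 values, made by the authors as log2(reads / size factor + 4). Reversing this gave whole reads (within 0.1) for 100% of low values. Of 18578 rows, 369 without a gene identifier were left out. Every per-sample column was used, groups came from the sample labels, and no libraries were identical.

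Genes that reached a normalized count of 10 in 4 or more libraries were fitted with limma 3.58.1 (R 4.3.3, lmFit, eBayes with trend), all 16 libraries in one fit with one mean per genotype. P-values were adjusted by Benjamini-Hochberg over 15781 genes. Correlations used 100000 permutations. The fit was tested on simulated data. Tables and plots used Python 3.11.15, pandas 2.3.3, numpy 2.4.6, scipy 1.17.1 and matplotlib 3.10.9.

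The 10 genes and all lists were chosen with earlier results of these data known. All 10 are named. From the other pathway genes and the companion lists, genes past an adjusted p under 0.05 are named (at most 3 per list and contrast), and a few more were chosen after their values were seen. Alternatives were pseudocounts of 0.5 and 1, no filter and a minimum of 50, quantile normalization, library totals, only the compared groups, eBayes without trend, the replicate block, limma voom on recovered reads, and each library left out.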

Additional observations from a re-analysis of the deposited data

How the results depend on the processing

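With the fits of all 16 libraries, the count of axis genes past the study thresholds was 0 in every contrast and alternative. Among fits leaving out a library it ranged from 0 to 1 in compound against substituted livers, where *Ghr* passed without compound replicate 4, and was 0 elsewhere. Without that library 16 of all genes were higher and 26 lower at these thresholds in that contrast. Library totals moved the median of all genes by 0.12 in compound against substituted livers, 0.12 in compound against knockout livers and 0.13 in the interaction. Genes past the study thresholds in compound against substituted livers were then 19 higher and 13 lower, against 11 and 16 with the deposited scaling. *Ghr* there differed by -0.86 (limma adjusted p = 0.039). The same 5 axis genes remained lower at an unadjusted p under 0.05 in that contrast. Replicate numbers gave no sign of pairing: same-numbered deviations correlated at -0.32 to 0.31, over 0.1 in 4 of 24 pairs. Different-numbered deviations correlated at -0.335 to 0.327. These values cannot show whether mice were matched by litter or batch. With the replicate block the count of axis genes called stayed 0 in each contrast, and *Igf2* had an adjusted p of 0.072.

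Small differences changed sign. Under quantile normalization and library totals respectively these were *Igfbp2* in compound against substituted livers (0.23 and 0.12), *Igf1* in substituted against control livers (-0.024 and -0.0017) and *Igfbp1* in the interaction (0.23 and 0.12, and 0.0022 with limma voom). *Stat5b* in compound against knockout livers was 0.030 with library totals. Leaving out each library gave ranges across 0. In knockout against control livers they were -0.19 to 0.39 for *Cish*, -0.39 to 0.25 for *Igfbp2* and -0.21 to 0.32 for *Socs2*. In compound against substituted livers they were -0.27 to 0.22 for *Igfbp2* and -0.091 to 0.22 for *Igfbp3*. In substituted against control livers they were -0.0017 to 0.18 for *Ghr*, -0.23 to 0.18 for *Igf1*, -0.57 to 0.19 for *Igfbp1*, -0.24 to 0.15 for *Prlr* and -0.035 to 0.25 for *Stat5b*. In compound against knockout livers they were -0.15 to 0.37 for *Igf1*, -0.77 to 0.092 for *Igfals*, -0.073 to 0.24 for *Igfbp3* and -0.23 to 0.016 for *Stat5b*. In the interaction they were -0.16 to 0.37 for *Igf1*, -0.45 to 0.31 for *Igfbp1* and -0.26 to 0.38 for *Igfbp2*. The cause was not tested. Counting error of the axis genes was at most 15.8%, for *Cish*.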

Other observations

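Companion lists of genes that respond to growth hormone, feeding or stress were read in the same fit. Of 13 integrated stress response genes, 2 were higher in compound than in substituted livers at an adjusted p under 0.05, where 0.38% of all genes were. At an unadjusted p under 0.05, 10 of 13 were higher, against 6.52% of all genes. The median log2 difference of the list was 0.94. Without compound replicate 1 the counts were 1 and 10, where 28 and 853 of all genes were higher, and the median was again 0.94. In knockout against control livers 3 of 13 were higher at an unadjusted p under 0.05, against 5.62% of all genes. None passed an adjusted p under 0.05 there, and the median was 0.67. *Psat1*, a serine synthesis enzyme gene, was higher by 2.45 (limma adjusted p = 0.017, and 0.046 without compound replicate 1), and *Nupr1*, a stress-induced chromatin factor gene, by 1.82 (limma adjusted p = 0.041, and 0.13 without compound replicate 1). In compound against knockout livers 2 of 13 were higher at an adjusted p under 0.05, where 0.779% of all genes were. *Nupr1* was higher there by 2.03 (limma adjusted p = 0.012, and 0.049 without compound replicate 1). *Atf5*, a stress-induced transcription factor gene, was higher by 0.94 (limma adjusted p = 0.040, and 0.12 without compound replicate 1). Reads of *Nupr1* were few, at 35 to 126 per library in compound livers and 8 to 41 in all others.

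Male-biased liver genes, known targets of pulsatile growth hormone, were measured before adult sex differences are established. Of 9 tested, 2 were lower in compound than in knockout livers at an adjusted p under 0.05, where 1.29% of all genes were. *Cyp7b1*, an oxysterol hydroxylase gene, was at 6.86, 7.06, 6.02 and 6.74 in control livers, at 7.83, 7.27, 8.30 and 7.94 in knockout livers, at 5.98, 6.59, 6.42 and 5.43 in substituted livers and at 5.63, 5.83, 5.38 and 5.62 in compound livers. Knockout livers lay above every other liver. Their mean was 1.16 above control livers (limma adjusted p = 0.085), and compound livers differed from substituted livers by -0.49 (limma adjusted p = 0.47). Between compound and knockout livers the log2 difference was -2.22 (limma adjusted p = 0.00028), and -2.23 without compound replicate 1 (limma adjusted p = 0.0014). *Ugt2b38*, a glucuronosyltransferase gene, differed by -1.26 (limma adjusted p = 0.027, and 0.096 without compound replicate 1). It differed by 0.68 in knockout against control livers (limma adjusted p = 0.36) and by -0.48 in compound against substituted livers (limma adjusted p = 0.48). The list's median in compound against knockout livers was -1.26, and -1.08 without compound replicate 1. Of 12 tested female-biased genes none passed an adjusted p under 0.05 in any contrast, with a lowest limma adjusted p of 0.063, as was so for 6 growth hormone-regulated factors (0.10), 8 fasting-induced genes (0.20), 6 insulin-induced genes (0.073) and 3 tested genes silenced after birth (0.063).

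Among markers of other cells, the neutrophil gene *S100a8* was higher by 2.05 in compound than in knockout livers (limma adjusted p = 0.034, and 0.089 without compound replicate 1). At an adjusted p under 0.05, 0.779% of all genes were higher there. All 4 neutrophil markers were higher at an unadjusted p under 0.05, where 8.45% of all genes were. Without compound replicate 1 the count was again 4, and 1015 of all genes were higher. Summed neutrophil markers ran from 418 to 1600 normalized counts in compound livers and from 144 to 287 in knockout livers. The sums were 329 to 1136 in substituted and 160 to 803 in control livers, so both overlapped the compound range. No marker of hepatocytes, Kupffer cells, sinusoidal endothelium, stellate cells, cholangiocytes, erythroid cells, B cells or T cells passed an adjusted p under 0.05 in any contrast. The lowest limma adjusted p was 0.14, 0.33, 0.20, 0.075, 0.41, 0.21, 0.10 and 0.38 in that order. All 4 B cell markers were higher at an unadjusted p under 0.05 in substituted than in control livers (median log2 difference 1.32, where 4.32% of all genes were higher) and in compound than in knockout livers (median 1.18, or 1.30 without compound replicate 1, where 8.45% of all genes were higher). Of 5 erythroid markers, 4 were lower at that limit in knockout than in control livers (median -1.23), where 5.41% of all genes were lower. Without compound replicate 1, 1 erythroid marker passed an adjusted p under 0.05 in knockout against control livers and 1 in substituted against control livers. Both differences were negative, and 28 and 13 of all genes were lower in these contrasts at that limit. The values of the lists without that library were added after the data were seen. The part of these cells in the differences of the axis genes was not tested.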
